A study of Danio rerio with 6 samples.

Results

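To find what zebrafish tumors driven by the lymphocyte transcription factor IRF4 have in common, RNA from all 4 tumor libraries was compared as 1 group with RNA from 2 control thymus libraries, which are all 6 libraries of the series. The tumors came from fish carrying human IRF4 and the red marker mCherry under the zebrafish lck promoter, which is active in lymphocytes. There were 2 libraries from such fish with normal p53 (lck-IRF4) and 2 from fish that also had 1 mutant copy of p53 (lck-IRF4;p53+/-, called p53 heterozygous here). Tumor cells were harvested once lymphoma had developed and were sorted on mCherry, and the controls were normal thymus from fish with the marker alone (lck-mCherry). Bulk RNA-seq tumors were taken from lck-IRF4 fish 10 months old. No age was found for the p53 heterozygous and control fish of this assay, and the labels do not say whether the control thymus cells were sorted. Tumor, transgene, age, site of harvest and sorting therefore cannot be told apart in this comparison. Each gene was read for what both genotypes shared: of 31901 genes in each of 2 deposited gene tables, 12116 had an authors' mean of 10 or more normalised reads in both tables. Whole-number counts per library were recovered for 12075 of these genes and 12038 were tested. Just inside that limit was acaca, with a smaller mean of 10.004 and 0.60 to 1.96 CPM in the 6 libraries, and just outside it was eogt, with 9.99 and 0.14 to 1.7 CPM.

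IRF4 is a DNA-binding protein that acts with partners of the AP-1 and Ets families and is best known for plasma cell formation and for the response of T cells to their receptor. Thymocytes pass from a stage without the coreceptors CD4 and CD8, through a stage that carries both, to mature cells that keep one of them. T cells use either alpha-beta or gamma-delta receptors, and lck encodes a kinase that signals from either receptor.

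The 6 libraries held between 6925454 and 9000544 recovered gene reads, and a count of 3 reads corresponded to between 0.30 and 0.42 counts per 1e+06 reads (CPM, scaled with TMM and not divided by gene length). The first principal component, with 47.0% of the variance, set both controls apart from the 4 tumors. Pearson correlations of log2 CPM across genes were 0.889 to 0.920 within a group, 0.876 to 0.888 between tumors of different genotype, and 0.786 to 0.870 between a control and a tumor. Nothing states that the 2 libraries of a group came from different fish, so p-values measure the spread between these libraries, which may be technical. Values below are CPM, with control replicates 1 and 2 first, then lck-IRF4 replicates 1 and 2 and p53 heterozygous replicates 1 and 2.

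In the pooled comparison, 304 of 14093 tested genes (2.16%) were called at an adjusted p under 0.05 by edgeR's quasi-likelihood test, 154 higher (1.09%) and 150 lower (1.06%) in tumors, with 3134 (22.2%) at an unadjusted p under 0.05. All tumors lay outside the range of both controls at 4420 of the tested genes (31.4%), 2441 higher (17.3%) and 1979 lower (14%). Of the 12038 described genes, 300 (2.49%) were called, 150 in each direction (1.25% each), 2482 (20.6%) had an unadjusted p under 0.05, and DESeq2 called 763 higher (6.34%) and 635 lower (5.27%). The groups did not overlap at any of these 300 genes, against 3663 described genes (30.4%) without overlap in all, 1751 of them higher (14.5%) and 1912 lower (15.9%). The 4 called genes outside the described set were guca1b, otx5, frmd7 and musk, all higher in tumors. Both controls carried these calls: without either control library 0 genes were called by edgeR, with 2710 or 2982 at an unadjusted p under 0.05, and all 304 kept their direction and an unadjusted p under 0.05. The 304 were chosen by p-value on these same libraries, so keeping direction and an unadjusted p under 0.05 is no independent evidence. Leaving out lck-IRF4 replicate 1 gave 192 calls and leaving out p53 heterozygous replicate 2 gave 159. With the total transcript reads as library size in place of TMM, 195 genes were called, 130 higher and 65 lower, and the median of all tested genes moved from 0.06 to 0.30 on the log2 scale. Transcripts, tested without gene names, gave 350 calls of 14603 (2.40%), 171 higher (1.17%) and 179 lower (1.23%).

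**Figure D1:**
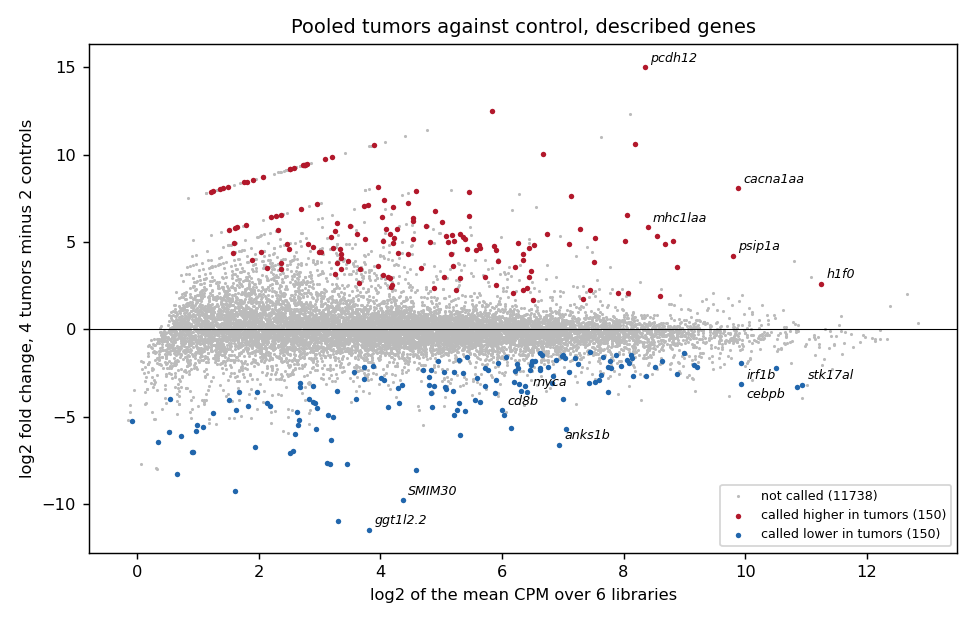
Log2 fold change of the 4 tumors over the 2 controls (vertical axis) against the log2 of the mean CPM (horizontal axis) for 12038 described genes, 1 point each. The 150 genes called higher (red) reach 15.01 for pcdh12 and the 150 called lower (blue) reach -11.48 for ggt1l2.2, with most other genes near 0. The upper diagonal row of points holds genes with no reads in either control.

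Called genes moved by large amounts. The spread between libraries was wide, with a biological coefficient of variation of 0.572. The smallest called changes were 1.65 higher and -1.30 lower on the log2 scale. Counts of this design were simulated with 1 common spread for all genes. The test recovered 2.9% of genes changed by 1 on the log2 scale, 13.6% of those changed by 2 and 86.4% of those changed by 4. It also made 6 false calls. At that common spread most changes of 2 or less on the log2 scale were missed. Measured genes differ in spread, so these shares need not hold for each of them. Among genes called higher, the highest tumor library was a median of 2.67 times the lowest.

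No gene called in the pooled comparison passed a test between the tumor genotypes by edgeR. Of the 300 genes, 0 passed the edgeR test of p53 heterozygous against lck-IRF4 tumors after adjustment, and 23 (7.67%) had an unadjusted p under 0.05, against 647 of 12038 (5.37%) among all described genes and 954 of 14093 (6.77%) among all tested. A single tested gene outside these 300 passed (0.0071%). DESeq2 called 3 of the 300, which are named for that reason: fn1a was higher in p53 heterozygous tumors, and flrt3 and hivep3b were lower in them than in lck-IRF4 tumors. Each genotype taken alone against the same controls gave 118 (0.98%) and 317 (2.63%) called genes of the 12038, for lck-IRF4 and p53 heterozygous tumors respectively, and 132 (0.937%) and 327 (2.32%) of all tested genes. With 2 libraries in each genotype, a missed threshold does not show that the genotypes were alike. The pooled test also counts a difference between genotypes as spread among tumors, which can keep a gene that differs from being called. The share at an unadjusted p under 0.05 between genotypes was not lower among the 300 (7.67%) than among described genes (5.37%). How far this shaped the 300 was not tested.

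The coreceptor genes cd8b and cd4-1 fell. Of 16 described members of a list for thymocytes that carry CD4 together with CD8, 2 were called lower and 0 higher, against 1.25% of described genes in either single direction, and the list median was -1.46 on the log2 scale, against -0.06 over described genes. In 8 of the 16 the tumors all lay below both controls, and in 2 all above, against 15.9% and 14.5% of described genes.

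The gene cd8b, for a chain of the CD8 coreceptor, had 221 and 133 CPM in controls and 11.1, 6.90, 7.60 and 2.94 CPM in tumors. Every tumor library lay far under both controls, and cd8b fell by 4.63 ± 0.50 (SE) on the log2 scale (adjusted p = 0.0109). The gene cd4-1, for the CD4 coreceptor, had 31.9 and 10.9 CPM in controls and 1.3, 1.83, 0.108 and 0.544 CPM in tumors. It fell by 4.50 ± 0.88 on the log2 scale (adjusted p = 0.0483), with fold changes of -3.77 in lck-IRF4 and -5.97 in p53 heterozygous tumors that did not pass the test of their difference. In bulk RNA, fewer cells of a type and less RNA per cell cannot be told apart.

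Other genes of the stage had fold changes of either sign and did not pass. The chromatin organiser satb1b had 1637 and 443 CPM in controls and 155, 186, 324 and 136 CPM in tumors (log2 fold change -2.38, adjusted p = 0.0653). The recombinase gene rag2 had 247 and 276 CPM in controls and 489.6, 934, 556 and 1255 CPM in tumors (1.63, adjusted p = 0.104). All tumors lay on 1 side of both controls at satb1b and at rag2, whereas the thymus homing receptor ccr9a, at 8087 and 2608 CPM in controls and 914 to 3468 CPM in tumors, overlapped. The immature thymocyte factor sox4b had 29.9 and 25.0 CPM in controls and 130.3, 162, 17.7 and 166 CPM in tumors, low only in p53 heterozygous replicate 1 (adjusted p = 0.184).

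General T-cell identity genes held 1 called member. Of 18 described members, 1 was called lower and 0 higher, against 1.25% of described genes in each direction. All tumors lay below both controls at 6 and above at 1, against 15.9% and 14.5% of described genes. At an unadjusted p under 0.05, 6 were lower and 1 higher, against 20.6% of described genes in either direction. DESeq2 called 3 lower and 0 higher, against 5.27% and 6.34%. The median was -0.32, or -0.08 with total reads as library size. The called gene was lcp2a, for the SLP-76 adaptor of T-cell receptor signalling. It had 243 and 207 CPM in controls and 76.7, 61.9, 76.0 and 48.9 CPM in tumors (-1.77 ± 0.29, adjusted p = 0.0322). The receptor kinase gene zap70 overlapped between the groups, at 1182 and 1764 CPM in controls and 1011 to 1506 CPM in tumors. The transcription factor tcf7 and the thymocyte signalling gene themis did not pass either, with log2 fold changes of -0.62 and -1.14 (adjusted p = 0.488 and 0.157), and tcf7 turned to 0.25 without control replicate 1. The kinase gene lck was not counted here, because its reads could not be recovered.

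Gamma-delta receptor genes held calls of either sign. Of 10 described members, 1 was called higher and 1 lower, against 1.25% of described genes in each direction, with a median of 1.02. At an unadjusted p under 0.05, 3 were higher and 1 lower, against 20.6% of described genes in either direction. DESeq2 called 3 higher and 1 lower, against 6.34% and 5.27%. The constant segment trdc of the delta chain had 499.5 and 335 CPM in controls and 30.2, 70.09, 78.3 and 17.6 CPM in tumors, a fall of 3.09 ± 0.57 on the log2 scale (adjusted p = 0.0398). The variable segment trgv5 of the gamma chain had 10.6 and 8.14 CPM in controls and 34.0, 81.5, 116 and 64.9 CPM in tumors, a rise of 2.99 ± 0.56 (adjusted p = 0.0424). At both genes the groups did not overlap. The segment trgv1 differed most between single tumors, at 208 and 231 CPM in the lck-IRF4 libraries but 2.93 and 72.6 CPM in the p53 heterozygous ones, against 4.69 and 3.80 CPM in controls, and did not pass (adjusted p = 0.129). Variable segments are similar in sequence, so their reads may be split between copies.

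**Figure D2:**
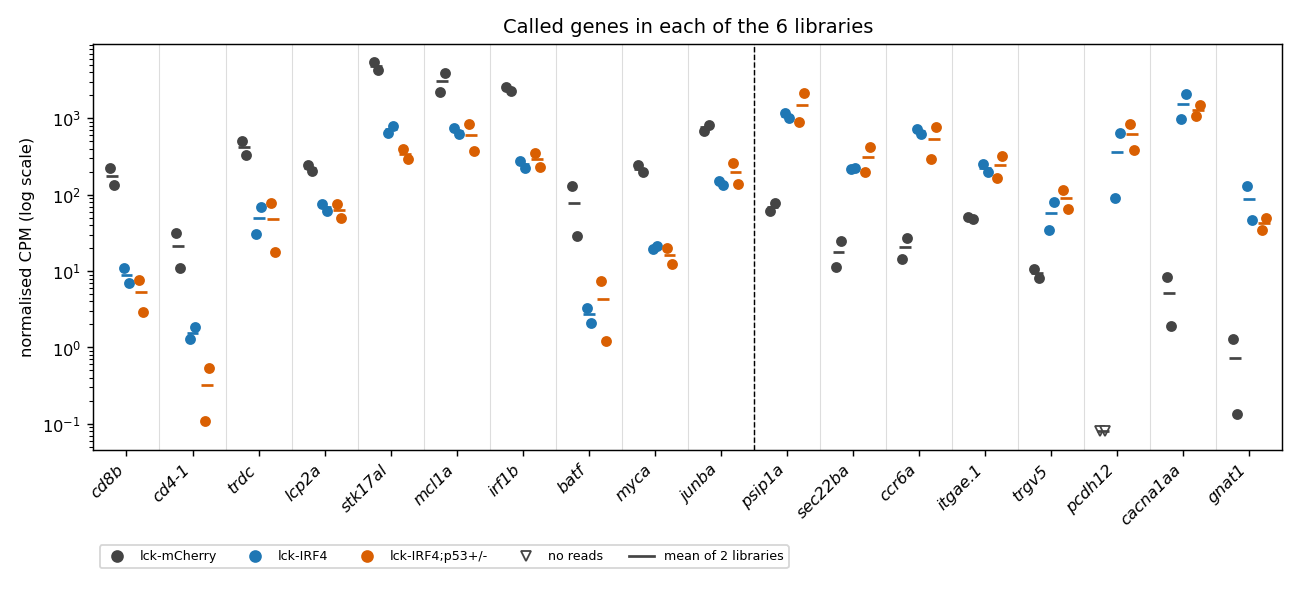
CPM on a log axis of 18 called genes in each library, with 1 point a library, the mean of each pair as a bar and open triangles for libraries without a read, which are drawn at the foot of the axis. Left of the dashed line all 4 tumors (blue, lck-IRF4; orange, p53 heterozygous) lie under both controls (grey), and right of it all lie above them.

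Among relatives and partners of IRF4, 3 genes fell. Of 19 described members of the interferon regulatory factor and IRF4 partner list, 3 were called lower and 0 higher, against 1.25% of described genes in each direction, with a median of -0.88. The AP-1 family member batf, which binds DNA together with IRF4 in mammalian lymphocytes, had 129 and 29.2 CPM in controls and 3.3, 2.11, 7.49 and 1.2 CPM in tumors (-4.48 ± 0.79, adjusted p = 0.037). Its JunB-type dimer partner junba had 689.6 and 829 CPM in controls and 150.2, 135, 256 and 137 CPM in tumors (-2.16 ± 0.34, adjusted p = 0.0289).

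The interferon response factor irf1b (gene ENSDARG00000043249.7) had 2536 and 2264 CPM in controls and 275, 225, 353 and 232 CPM in tumors. This fall of 3.14 ± 0.30 on the log2 scale (adjusted p = 0.00807) was among the tightest, since neither group spread much. Another gene with the same symbol did not pass (log2 fold change 0.06). The fish's own IRF4 genes did not pass: irf4b had 254 and 41.9 CPM in controls and 6.80, 10.3, 63.5 and 14.5 CPM in tumors (adjusted p = 0.166), and irf4a 97.7 and 16.8 CPM in controls and 8.93 to 39.4 CPM in tumors (adjusted p = 0.32). Without control replicate 1 the fold change of irf4a turned from -1.39 to 0.33. The human IRF4 transgene was not analysed here.

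The immediate-early genes, which T cells switch on soon after receptor stimulation, were mostly below the controls. In 13 of 21 described members all tumors lay below both controls and in 0 above, against 15.9% and 14.5% of described genes, and the median was -1.67. A single member, junba, was called lower, against 1.25% of described genes. DESeq2 called 5 lower and 0 higher, against 5.27% and 6.34% of described genes. The members with the highest CPM did not pass: the phosphatase gene dusp2 had 2279 and 4476 CPM in controls and 1461, 1019, 1019 and 73.3 CPM in tumors (adjusted p = 0.235), and fosab, for the AP-1 subunit Fos, had 1772 and 2882 CPM in controls and 462 to 2822 CPM in tumors, with overlap.

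The BCL2 family sets the threshold for cell death and holds both promoters and blockers of it. Of 16 described BCL2 family members 1 was called lower and 0 higher (1.25% of described genes in each direction). All tumors lay below both controls at 8 and above at 0, against 15.9% and 14.5% of described genes, and the median was -1.39. The called gene was the anti-apoptotic mcl1a, with 2212 and 3915 CPM in controls and 736, 626, 849.7 and 373 CPM in tumors (-2.25 ± 0.40, adjusted p = 0.037). The family member bcl2l10 had 2549.8 and 1482 CPM in controls and 475, 737, 825 and 454 CPM in tumors and just missed the threshold (-1.70, adjusted p = 0.0618).

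The p53 pathway list had 0 of 24 members called by edgeR. All tumors lay below both controls at 7 and above at 1, against 15.9% and 14.5% of described genes. At an unadjusted p under 0.05, 2 were higher and 5 lower, against 20.6% of described genes in either direction. DESeq2 called 1 higher and 4 lower, against 6.34% and 5.27%. The stress sensor gadd45ba came closest, with 375 and 822 CPM in controls and 182, 143, 142 and 72.2 CPM in tumors (-2.15, adjusted p = 0.0508). The kinase gene plk3 had 2321 and 2075 CPM in controls and 2303, 1039, 863 and 916 CPM in tumors, of which only lck-IRF4 replicate 1 lay within the control range (adjusted p = 0.336). This list did not hold stk17al, which the study places downstream of p53 and which was called lower, as given below.

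Of the genes that the study singled out as active in tumors, psip1a and sec22ba were called. Since that list was chosen on tumors of this study, it is no independent evidence of direction. Of its 11 members 2 were called higher and all tumors lay above both controls at 5, against 1.25% and 14.5% of described genes. The list median was 1.01. The chromatin-bound coactivator psip1a had 61.2 and 78.3 CPM in controls and 1157, 1008, 892 and 2133 CPM in tumors (4.22 ± 0.52, adjusted p = 0.0146). The vesicle fusion gene sec22ba had 11.2 and 24.8 CPM in controls and 219.9, 223, 200.03 and 418 CPM in tumors (3.88 ± 0.55, adjusted p = 0.0206). At both genes p53 heterozygous replicate 2 was the highest library.

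The T-lineage factor gata3 had 2084 and 2238 CPM in controls and 7369, 10364, 4650.4 and 12195 CPM in tumors. The groups did not overlap, but the change of 2.00 ± 0.46 on the log2 scale missed the threshold (adjusted p = 0.0679). Its counts, like those of midn, stk17al, btg1, ccr9a, mki67 and themis, were 1 of several whole-number solutions and were settled by the closest transcript. In contrast midn, a regulator of protein turnover in the nucleus, was high in lck-IRF4 replicate 2 alone, at 6539 CPM against 1028 to 1443 CPM in the other tumors and 2933 and 2174 CPM in controls.

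The study also named 5 genes for lower levels in tumors, of which 4 could be counted. Of these, 2 were called lower and all tumors lay below both controls at all 4, against 1.25% and 15.9% of described genes. That list, too, is no independent evidence. The study read the genes of both lists mainly in single cells without CD4 and CD8. The bulk RNA compared here is another measure on a wider set of cells. Beside mcl1a the called gene was stk17al, a kinase gene of the death-associated family. It had 5392 and 4251 CPM in controls and 649, 783, 396 and 296 CPM in tumors (-3.18 ± 0.42, adjusted p = 0.0189). The E-protein inhibitor id3 had 976 and 4289 CPM in controls and 464, 589, 210.1 and 137 CPM in tumors (-2.91, adjusted p = 0.0724), and the antiproliferative gene btg1 7100.2 and 5146 CPM in controls and 3378 to 4965 CPM in tumors (-0.58, adjusted p = 0.31).

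**Figure D3:**
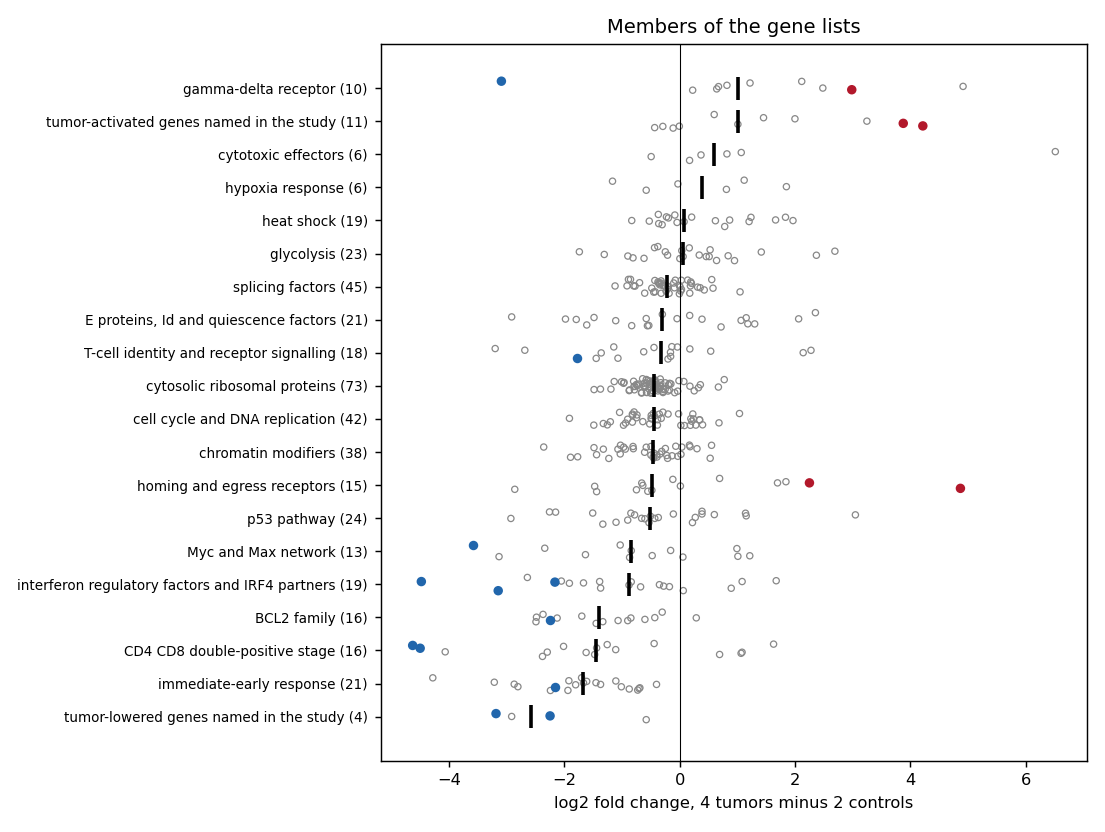
Log2 fold change of the 4 tumors over the 2 controls for every described member of the pathway lists with 4 or more members, whose number stands after the name. Filled points were called (red higher, blue lower), open points were not, and bars are list medians, from -2.58 for the tumor-lowered genes to 1.02 for the gamma-delta receptor genes.

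Of the Myc genes, which drive growth, 1 fell. The gene myca, for one of the fish's Myc proteins, had 242 and 196 CPM in controls and 19.2, 21.4, 19.9 and 12.4 CPM in tumors, a fall of 3.58 ± 0.31 on the log2 scale (adjusted p = 0.00745). Its paralogue mycb had 536 and 782 CPM in controls and 1146, 1246, 769 and 2149.9 CPM in tumors, with overlap (1.01, adjusted p = 0.238). Of 13 members of the Myc and Max network only myca was called, against 1.25% of described genes called lower. The network median was -0.84. All tumors lay below both controls at 4 members and above at 1, against 15.9% and 14.5% of described genes. At an unadjusted p under 0.05, 4 were lower and 1 higher, against 20.6% of described genes in either direction. DESeq2 called 4 lower and 0 higher, against 5.27% and 6.34%.

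The cell cycle and DNA replication list had 0 of 42 members called by edgeR and a median of -0.44. All tumors lay below both controls at 11 and above at 2, against 15.9% and 14.5% of described genes. At an unadjusted p under 0.05, 1 was higher and 7 lower, against 20.6% of described genes in either direction. DESeq2 called 0 higher and 2 lower, against 6.34% and 5.27%. The proliferation marker mki67 had 3659 and 2775 CPM in controls and 1424, 2056, 2751 and 3650.4 CPM in tumors, and the polymerase clamp pcna 1053 and 1899 CPM in controls and 809.9 to 1143 CPM in tumors, both with overlap. The replication helicase gene mcm2 also overlapped, at 489 and 755 CPM in controls and 644 to 936 CPM in tumors.

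Housekeeping and regulatory lists had no called member. The edgeR test called 0 of 73 ribosomal protein genes (median -0.44), 0 of 38 chromatin modifiers (-0.45), 0 of 45 splicing factors (-0.21), 0 of 23 glycolysis genes (0.06), 0 of 19 heat shock genes (0.08), 0 of 6 hypoxia genes (0.39), 0 of 6 cytotoxic effectors (0.60) and 0 of 21 E-protein, Id and quiescence genes (-0.30). An unadjusted p under 0.05 was reached by 20.6% of described genes in either direction, and DESeq2 called 6.34% higher and 5.27% lower. In the ribosomal, chromatin, splicing and E-protein lists, 1, 8, 5 and 3 genes were lower and 0, 0, 1 and 2 higher at that level, and DESeq2 called 0, 4, 1 and 2 lower and 0 higher. In the glycolysis, heat shock, hypoxia and cytotoxic lists, 1, 2, 0 and 1 genes were higher and 1, 0, 0 and 0 lower, and DESeq2 called 1, 0, 0 and 1 higher and 0 lower. Over all 31 counted glycolysis genes the summed CPM was 3678 and 3541 in controls. It was 2679 and 2495 in lck-IRF4 tumors and 6169 and 5586 in p53 heterozygous tumors. The pooled glycolysis median thus joins genotypes whose sums lay on opposite sides of the controls. By edgeR, 0 described glycolysis members passed between genotypes after adjustment. All tumors lay below both controls at 11 of the 38 chromatin modifiers and above at 0, and below at 10 and above at 2 of the 45 splicing factors, against 15.9% and 14.5% of described genes. With total reads as library size the medians of the ribosomal, splicing and E-protein lists became -0.17, 0.02 and 0.00. The summed CPM of the counted ribosomal genes was 43728 and 113019 in controls and 49629 to 69986 in tumors, so every tumor lay between the controls. The antiproliferative gene tob1a had 1127 and 1085 CPM in controls and 210.3, 285, 500.3 and 127 CPM in tumors, below both controls in every tumor (-1.98, adjusted p = 0.0753). The pore-forming cytotoxic gene prf1.2 had 1 read in the controls together and 7.0, 11.5, 9.55 and 1.52 CPM in tumors (adjusted p = 0.0552). Of 13 mitochondrially encoded genes 3 could be counted, and 0 of these was called by edgeR, at an unadjusted p under 0.05 or by DESeq2.

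Receptors that guide T cells to tissue included 2 genes called higher of 15 and 0 lower, against 1.25% of described genes in each direction. The list median was -0.48. The chemokine receptor gene ccr6a had 14.3 and 27.15 CPM in controls and 735, 625, 292 and 774 CPM in tumors (4.87 ± 0.59, adjusted p = 0.0146). The integrin gene itgae.1, whose mammalian counterpart holds T cells in epithelium, had 51.8 and 47.6 CPM in controls and 255, 199, 168 and 325 CPM in tumors (2.25 ± 0.38, adjusted p = 0.0334). The leukocyte integrin chain itgb2 had 810.1 and 645 CPM in controls and 368 to 471 CPM in tumors, below both controls in every tumor without passing (adjusted p = 0.166), and the chemokine receptor cxcr4b overlapped (-0.66, or 0.18 without control replicate 1).

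The 15 largest rises were mostly genes without a read in either control. The protocadherin gene pcdh12, for a cell adhesion protein of endothelium in mammals, had 0 and 0 CPM in controls and 90.5, 644, 839 and 390.1 CPM in tumors. Its tumor mean was at least 1230-fold higher against a floor of 3 reads in each control library. Such bounds, here and below, set the mean of the group with reads against the floor, so a single library can lie lower. The cation channel gene trpc4a had 0 and 0 CPM in controls and 29.0, 67.6, 61.1 and 185 CPM in tumors, at least 215-fold higher. The endocytic receptor gene lrp1ba had 2 reads in the controls together and 46.5, 169, 301 and 96.2 CPM in tumors, a ratio of 1128 with a 95% counting interval of 312 to 9313. Its paralogue lrp1bb was at least 26.1-fold higher, at 8.57 to 14.7 CPM in tumors.

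Of the others without a control read, the opsin gene tmtopsb, the fatty acid elongase elovl4b, brinp2, oxgr1a.3, zgc:101699, si:dkey-85k7.7 and si:dkeyp-122a9.2 were at least 24.9-fold to 56.3-fold higher. All 4 tumor libraries of both genotypes held reads of each of these genes. In all, 22 of the 150 genes called higher had no reads in either control. Such a gene could reach the limit on the authors' mean only through its tumor libraries. Among the rest of the 15 were saga, gngt1 and rom1a.

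These 3 belong to the photoreceptors of the eye. The genes saga, gngt1 and rom1a had no control reads and were at least 22.5-fold, 21.5-fold and 21.5-fold higher. Of 28 listed photoreceptor and lens markers, 6 passed the limit on the authors' mean. With control levels near 0 they could pass only through the tumor libraries, so how many of them were called says nothing more. The transducin gene gnat1 had 1.3 and 0.136 CPM in controls and 131, 46.6, 34.8 and 50.2 CPM in tumors (6.47 ± 1.02 on the log2 scale, adjusted p = 0.0299). Summed over all 28, of which 15 had no reads in either control, the level was 4.4 and 1.6 CPM in controls and 1018.8, 462.9, 298.9 and 477.5 CPM in tumors. Without the marker of the highest level the sums were 4.0 and 1.5 CPM in controls and 221.3, 94.7, 66.2 and 122.6 CPM in tumors.

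The 15 largest falls held 4 genes without a read in any tumor: ggt1l2.2, si:dkey-222h21.9, CU914631.1 and rnd2. These 4 could reach the limit on the authors' mean only through the controls, which both deposited gene tables share. The gamma-glutamyltransferase gene ggt1l2.2 had 34.6 and 50.0 CPM in controls, at least 123-fold above the floor of 3 reads in each tumor library. Those of si:dkey-222h21.9, CU914631.1 and rnd2 were at least 86.5-fold, 26.7-fold and 13.6-fold. The small membrane protein gene SMIM30 had 65.2 and 58.4 CPM in controls and 2 reads in the 4 tumors together, a ratio of 1098 with a counting interval of 303 to 9078.

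Scaffold gene anks1b, in contrast, kept reads in every library, with 213 and 507 CPM in controls and 5.50, 2.39, 4.88 and 1.85 CPM in tumors (-6.61 ± 0.57, adjusted p = 0.00745). The alpha or delta receptor segment tradv1 had 5.61 and 5.43 CPM in controls and 1 read in the tumors together, a ratio of 196 with an interval of 34.2 to 7832. The other 8 genes, zgc:65851, si:dkey-222h21.10, si:ch73-236c18.2, ANKRD34C, CU896691.1, si:dkey-71l4.2, si:dkey-16p6.1 and si:ch211-218h8.1, each had 9 reads or fewer in the 4 tumors together. Like SMIM30 and tradv1, these 8 passed the limit on the authors' mean only through the controls. Several of these names stand for more than 1 gene in the files, and si:dkey-222h21.9 and si:dkey-222h21.10 are named from the same clone, so reads may be split between copies.

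**Figure D4:**
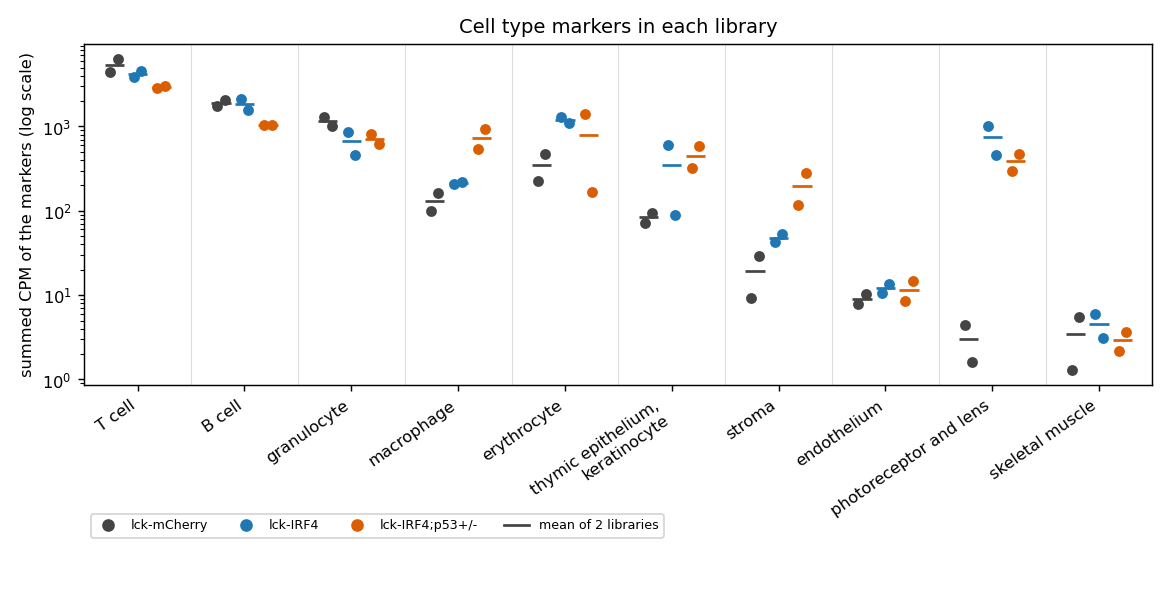
Summed CPM of the markers of 10 cell types (log axis) in each of the 6 libraries, with the mean of each pair as a bar. The photoreceptor and lens sum goes from 4.4 and 1.6 CPM in controls to between 298.9 and 1018.8 CPM in tumors, the macrophage and stroma sums are also higher in all 4 tumors, and muscle markers stay at 6.0 CPM or less.

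Markers of other cell types were summed in each library. The counts of members given for each marker list stand beside these shares of all described genes. An unadjusted p under 0.05 was reached by 20.6% in either direction, and DESeq2 called 6.34% higher and 5.27% lower. Macrophage markers summed to 99.5 and 163.2 CPM in controls and 210.2, 220.0, 540.3 and 930.9 CPM in tumors. Of 10 described members 0 were called by edgeR, with 6 higher and 0 lower at an unadjusted p under 0.05 and 5 higher by DESeq2. The complement gene c1qb had 3.78 and 7.87 CPM in controls and 18.3, 15.8, 59.2 and 77.6 CPM in tumors (adjusted p = 0.11). The scavenger receptor gene marco had 11.2 and 29.3 CPM in controls and 34.4, 27.3, 129 and 404 CPM in tumors, so its range overlapped. Stroma markers summed to 9.3 and 29.1 CPM in controls and 42.6, 52.6, 118.3 and 278.5 CPM in tumors. Of 6 members 1, the fibronectin gene fn1a, was called higher (5.73 ± 1.13, adjusted p = 0.0483), against 1.25% of described genes. With 8 reads in the controls together, fn1a passed the limit on the authors' mean only through its tumor libraries.

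Granulocyte markers split: the enzyme genes lyz and cpa5 and the chemotactic factor lect2l were called higher among 6 members, all 3 with control levels so low that they passed the limit through the tumors, whereas the proteoglycan gene srgn, which many leukocytes express, carried most of the sum and had 1291 and 1011 CPM in controls and 402 to 714 CPM in tumors. The gene lect2l had 1.43 and 2.04 CPM in controls and 101, 20, 23.6 and 104 CPM in tumors (adjusted p = 0.0442). Erythrocyte markers summed to 223.9 and 472.5 CPM in controls and to 1310.5, 1103.4, 1418.9 and 166.7 CPM in tumors, with 0 of 9 called by edgeR. At an unadjusted p under 0.05, 5 were higher, against 20.6% of described genes in either direction. DESeq2 called 3 higher, against 6.34%. The keratin gene krt4 had 4.69 and 9.64 CPM in controls and 195, 18.6, 22.9 and 90.4 CPM in tumors (adjusted p = 0.13). Epithelial markers summed to 72.0 and 95 CPM in controls and 89.8 to 601.3 CPM in tumors, with 0 of 9 called by edgeR, 6 higher at an unadjusted p under 0.05 and 3 higher by DESeq2.

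B-cell markers summed to 1753.5 and 2063.2 CPM in controls and 1037.7 to 2092.5 CPM in tumors, with 0 of 8 called by edgeR, 3 higher at an unadjusted p under 0.05 and 3 higher by DESeq2. T-cell markers summed to 4391.7 and 6222.5 CPM in controls and 2850.7 to 4530.6 CPM in tumors, with 0 of 5 called by edgeR, 2 lower at an unadjusted p under 0.05 and 1 lower by DESeq2. Among all described genes, 20.6% had an unadjusted p under 0.05 in either direction, and DESeq2 called 6.34% higher and 5.27% lower. T-cell markers were present in all 6 libraries. The summed CPM of photoreceptor, macrophage and stroma markers was higher in every tumor than in both controls, and so was the granulocyte sum without srgn. In 5 of 10 macrophage and 4 of 6 stroma members all tumors lay above both controls, against 14.5% of described genes. Members with control levels near 0 passed the limit on the authors' mean only through the tumor libraries, so their counts say little more. The part of other cell types in the called genes was not tested.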

How the data were processed

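RNA was measured in 6 zebrafish libraries (strand-specific, paired-end, BGISeq500). The deposited counts are whole reads per Ensembl transcript made by the authors and not normalised. The submitters' processing notes name STAR 2.5.2a, featureCounts 1.6.1, DESeq2 1.12.4 and GRCz11. The authors also deposited 2 gene tables whose mean of normalised counts (a signal value over 4 libraries) was used with the gene symbols. Their fold changes, standard errors, test statistics and p-values were not used.

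Transcripts could not be paired with genes by name, so counts per gene and library were recovered from the deposited means, in place of the planned sums of transcript counts. Each mean is written with 15 digits and is a weighted sum of whole reads of 4 libraries, the controls being shared by both tables. All whole-number solutions were searched for. Of 23228 genes with a mean above 0, 23129 had exactly 1, 58 had several and were settled by the closest transcript (within 10% of reads, the next solution at least 2 times farther, limits set after the candidates had been seen), and 41 abundant genes were left out. Libraries were assigned by means that labelled transcript counts gave exactly (74 in the labelled order against 11 in the best other order, and 68 against 2 for the second table). With control and tumor libraries exchanged in 1 table, 0 of 300 genes had a solution. Of 2033 genes with over 5000 reads, 81.3% had a transcript within 10% in all 6 libraries.

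Counts were tested with edgeR 4.0.16 in R 4.3.3 (TMM, filterByExpr, quasi-likelihood test, Benjamini-Hochberg adjustment over all genes tested), with 4 tumors against 2 controls without a block, and with 3 groups for each genotype. DESeq2 1.42.0 was an alternative. Others were its size factors, no filter, the mean of both genotypes, a replicate block and leaving out each library. Total reads as library size and leaving out the 58 settled genes were added after seeing the data. The test was tried on simulated data with 200 changed genes. With 4 libraries against 2, exact permutation has 15 arrangements and a smallest one-sided p of 0.0667. Floors of 3 reads and counting intervals (95%, exact binomial) cover counting error only.

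The named genes were the 15 largest called changes in each direction without overlap, the called members of 21 pathway and 12 marker lists, and members among the 4 with the highest CPM of a list. irf4a, irf4b, fn1a, flrt3 and hivep3b as genotype differences, the 4 called genes outside the described set and the genes of the closing observations were chosen after their values were seen, as were the uncalled list members among the eligible ones. Some results of the rule are not reported here. All members and lists were chosen with earlier results of these data known.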

Additional observations from a re-analysis of the deposited data

Results flagged for a closer look

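The highest or lowest of the 4 tumor libraries stood far from the other 3 (Dixon's test) at 15 of 133 groups looked at. At 6 of these, 3 libraries had no reads, so that any read in the other one sets it apart. The other 9 of 133 are near the 1 in 20 that chance gives. The p53 heterozygous replicate 1 had the odd value at irf4b (63.5 CPM, high), junba (256 CPM, high), h1f0 (1606 CPM, low) and ANKRD34C (0.434 CPM, high). The lck-IRF4 replicate 1 had it at gnat1 (131 CPM, high), pcna (809.9 CPM, low), plk3 (2303 CPM, high), si:dkey-85k7.7 (8.70 CPM, low), CU896691.1 (0.40 CPM, high) and tradv1 (0.10 CPM, high). The lck-IRF4 replicate 2 had it at midn (6539 CPM), si:ch211-218h8.1 (0.422 CPM) and si:dkey-16p6.1 (0.563 CPM), each high, and p53 heterozygous replicate 2 at sec22ba (418 CPM) and si:dkey-71l4.2 (0.109 CPM), each high. At the genes with values under 1 CPM the other tumor libraries had no reads.

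The gene jac2 was the only one of 14093 that differed between the tumor genotypes by edgeR. It had 0.391 and 0.543 CPM in controls, no reads in either lck-IRF4 library and 328 and 209 CPM in p53 heterozygous tumors. This is at least 743-fold higher in the latter against 3 reads in each lck-IRF4 library (fitted log2 difference 14.14, adjusted p = 0.0167).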

How the results depend on the processing

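DESeq2's size factors moved none of the counts of calls by over 1.5 times. The 304 pooled calls became 195 with total transcript reads as library size (transcripts 350 to 205), 674 with no filter on low counts (1813), 1769 with DESeq2 (1736) and 526 with the mean of both genotypes (547). All 304 genes kept their direction and an unadjusted p under 0.05 in every alternative that gave them a value. The 304 were chosen by p-value on these same libraries, so this is no independent evidence. Called in the alternative as well were 304 with DESeq2, 192 with total reads and 300 with the mean of genotypes. Without the 58 settled genes 314 genes were called, 301 of them among the 302 that had a value. Leaving out 1 library gave 0 to 267 calls (transcripts 0 to 313), the lowest without either control. The lck-IRF4 calls (132) became 1574 without the filter, 1381 with DESeq2 and 0 to 363 with 1 library left out, and the p53 heterozygous calls (327) became 1568, 1487 and 0 to 390. The single genotype difference became 336, 285 and 0 to 3. Genes without overlap (4420) numbered 4592 with total reads, 72.2% of them higher against 55.2%, 5528 without the filter and 4914 to 8717 with 1 library left out. Where 1 library was left of a group, it was assumed to vary like the others. The causes were not tested.

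Replicate numbers were shared between groups, and deviations of same-numbered libraries correlated at 0.059, 0.226 and -0.030. With 2 libraries in each group, these values cannot show whether the numbers pair the samples. With the replicate number as a block, 218 genes were called in the pooled comparison, 190 of them among the 304, and 0 between genotypes, and gzma turned to -0.11.

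Of the named genes, 10 changed sign in some alternative, none of them called. With total reads dnmt1 was 0.16, midn 0.16 and zap70 0.10 on the log2 scale. Over the libraries left out, the log2 fold change ran from -1.21 to 0.18 for cxcr4b, -0.25 to 0.090 for dnmt1, -0.23 to 0.73 for gzma, -2.15 to 0.33 for irf4a, -1.08 to 0.26 for midn, -1.76 to 0.49 for mnta, -0.92 to 0.55 for nfatc2a, -0.17 to 1.08 for rpl5a, -1.18 to 0.25 for tcf7 and -0.47 to 0.16 for zap70. Genes with a few reads a library can show only very large changes at this depth.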

Other observations

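Several called genes outside the lists had high CPM in 1 of the groups, and they were chosen after their values were seen. Among those higher in tumors, the calcium channel gene cacna1aa had 8.48 and 1.9 CPM in controls and 965, 2082, 1087 and 1493 CPM in tumors (8.08 ± 0.86 on the log2 scale, adjusted p = 0.0102). The MHC class I gene mhc1laa was among the most even, with 11.1 and 6.11 CPM in controls and 435, 592, 462 and 515 CPM in tumors (5.86 ± 0.45, adjusted p = 0.00745). The linker histone gene h1f0 had 480.1 and 632 CPM in controls and 3833, 4045, 1606 and 3995 CPM in tumors (2.60 ± 0.49, adjusted p = 0.0424). The progenitor receptor kinase flt3 had 6.39 and 2.04 CPM in controls and 81.5, 519.9, 163 and 160.0 CPM in tumors (5.77 ± 1.02, adjusted p = 0.037). The transcription factor mef2b rose from 16 and 6.79 CPM to between 159 and 817 CPM, and the cytokine il10 from 0.522 and 0.815 CPM to between 35.1 and 68.2 CPM. The chaperone pdia4 of the endoplasmic reticulum and the membrane protein gene itm2cb rose by 1.88 and 3.54 on the log2 scale.

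Other genes were lower in tumors. The cytokine feedback inhibitor cish had 69.8 and 184 CPM in controls and 10.5, 11, 4.99 and 3.92 CPM in tumors (-4.06 ± 0.55, adjusted p = 0.0198). The deubiquitinase cyldb, of a family that limits NF-kB signalling in mammals, had 282 and 128 CPM in controls and 4.70, 1.55, 6.62 and 3.16 CPM in tumors (-5.66 ± 0.58, adjusted p = 0.00924). The cyclin-dependent kinase inhibitor cdkn1bb had 909 and 605 CPM in controls and 226, 204, 276 and 156 CPM in tumors (-1.81 ± 0.32, adjusted p = 0.037). The inhibitor smad7 of TGF-beta signalling fell by 3.2, and the kinases map3k8 and tec fell by 3.26 each. The transcription factor cebpb, whose counts were settled by the closest transcript, had 5089 and 4164 CPM in controls and 516, 167, 858 and 329 CPM in tumors (-3.31 ± 0.57, adjusted p = 0.034).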
